A study of Homo sapiens with 2 samples.

Results

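The later-numbered microRNAs are those whose precursor carries a number of 1000 or more in the microRNA registry, which numbers hairpins in the order in which they were registered. They were followed in 2 small RNA libraries of MDA-MB-231, a human cell line derived from a triple-negative breast cancer. One library is labelled shELOVL5, for a short hairpin RNA (shRNA) against ELOVL5, an elongase of polyunsaturated fatty acids. The other is labelled shLuc, for an shRNA against luciferase that serves as control, so that the cells of both carry an shRNA. By the rule, 3 precursors with numbers above 1000 were left out. Of 1694 later-numbered mature names in the table of 2656, the 81 with at least 50 read counts over both libraries were kept. The members were thus chosen by their counts in these libraries, and their abundance is given as a description. The labels describe growth of the cell line but an extraction from frozen tumor material. They do not state how the shRNA was delivered, when the cells were taken, or whether they were a pool or a clone. The small RNA libraries do not measure ELOVL5 mRNA, so the knockdown itself was not checked here. With 1 library per condition no difference could be tested against variation between cultures, and the intervals below cover counting error only.

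MicroRNAs are short RNAs cut from hairpin precursors, first by Drosha and its partner DGCR8 in the nucleus and then by Dicer in the cytoplasm. The loaded strand guides Argonaute to mRNAs through its seed, bases 2 to 8 from the 5′ end. Most widely conserved, highly expressed human microRNAs were found by early cloning and carry low numbers. Deep sequencing later added many hairpins that are often rare, restricted to primates and of uncertain biogenesis, and some of them overlap tRNA, snoRNA, ribosomal RNA or repeat sequences. A few late numbers, such as miR-1307, miR-1271 and miR-1296, belong to hairpins described in several mammals.

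Mature sequences from RefSeq (GRCh38.p14) were matched by name for 71 of the 81. They are printed 5′ to 3′ with the seed in capitals. The most abundant members come first, because they carry most of the counts.
hsa-miR-1307-3p: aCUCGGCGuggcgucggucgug
hsa-miR-4521: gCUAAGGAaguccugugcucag
hsa-miR-1180-3p: uUUCCGGCucgcgugggugugu
hsa-miR-3615: uCUCUCGGcuccucgcggcuc

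The next 6 form 3 near-identical pairs, whose reads can be hard to tell apart.
hsa-miR-1260a: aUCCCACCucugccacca
hsa-miR-1260b: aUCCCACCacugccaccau
hsa-miR-1268a: cGGGCGUGgugguggggg
hsa-miR-1268b: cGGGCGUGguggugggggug
hsa-miR-1269a: cUGGACUGagccgugcuacugg
hsa-miR-1269b: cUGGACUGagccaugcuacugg
Counted from 1 at the 5′ end, miR-1260a and miR-1260b differ by U9A and miR-1269a and miR-1269b by G13A. All 18 bases of miR-1268a are the first 18 of the 20 in miR-1268b. The pairs thus share their seeds, and no other seed was shared among the members.

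Some members resemble an abundant older microRNA, which is printed beside them.
hsa-miR-9985: uUCACAGUggcuaagcuau
hsa-miR-27b-3p: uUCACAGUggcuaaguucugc
hsa-miR-27a-3p: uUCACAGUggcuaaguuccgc
hsa-miR-4510: uGAGGGAGuaggauguaugguu
hsa-let-7c-5p: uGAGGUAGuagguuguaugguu
hsa-miR-1271-5p: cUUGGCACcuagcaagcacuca
hsa-miR-96-5p: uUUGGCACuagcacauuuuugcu
The first 15 of the 19 bases of miR-9985 are those of both miR-27 microRNAs, and over its whole length it differs from miR-27b-3p by C16U and A18C. miR-4510 differs from let-7c-5p by G6U and A13U, of which G6U lies in the seed. miR-1271-5p has the seed of miR-96-5p with a different remainder. Likewise miR-2682-5p has the seed AGGCAGU of miR-449c-5p.

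The last set holds the members whose counts differed most between the libraries and 2 that end like a tRNA.
hsa-miR-4683: uGGAGAUCcagugcucgcccgau
hsa-miR-3613-5p: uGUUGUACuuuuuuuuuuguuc
hsa-miR-3690: aCCUGGACccagcguagacaaag
hsa-miR-1306-3p: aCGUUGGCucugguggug
hsa-miR-7977: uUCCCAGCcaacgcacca
hsa-miR-4454: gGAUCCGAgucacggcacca
Mature tRNAs end in an added CCA. With CACCA or CACCAU searched at the 3′ end of the mature strand, 4 of the 71 members matched, namely miR-1260a, miR-1260b, miR-7977 and miR-4454. The same ending was found in 7 of all 2367 names with a sequence (0.296%) and in 0 of the 307 other microRNAs with at least 50 counts.

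With the highest row kept for each mature name, the libraries held 6811811 counts in shELOVL5 and 7109272 in shLuc. With all precursor rows summed, these totals were 8544678 and 8802906. The cell line was checked with markers, and hsa-miR-222-3p, hsa-miR-21-5p, hsa-miR-146a-5p, hsa-miR-100-5p and hsa-miR-221-3p ranged from 2069 to 248557 CPM (counts per 1000000, scaled with TMM factors). Of these, hsa-miR-146a-5p differed between the libraries, at 3803 CPM in shELOVL5 and 2069 in shLuc. The epithelial markers were low, from 0.285 CPM for hsa-miR-205-5p in shLuc to 66.5 CPM for hsa-miR-200c-3p in shLuc, over the 3 names chosen as markers (hsa-miR-200c-3p, hsa-miR-141-3p and hsa-miR-205-5p). Of the same family, looked up afterwards, hsa-miR-200b-3p was higher, at 236 CPM in shELOVL5 and 180 in shLuc, a ratio of 1.31 (1.22 to 1.41). hsa-miR-200a-3p stood at 68.3 and 40.0 CPM, a ratio of 1.71 (1.47 to 1.99), and hsa-miR-429, with 114 and 73 counts, had a ratio of 1.59 (1.17 to 2.16). Of the blood cell markers, hsa-miR-144-3p and hsa-miR-223-3p had 0 counts, hsa-miR-451a had 6 and 2, and hsa-miR-142-3p had 45 counts in shELOVL5 and 2 in shLuc. The part of these differences, or of other cells, in the results below was not tested.

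The 81 members were a small share of each library. They took 1.07% of the counts in shELOVL5 (exact binomial 95% interval 1.06 to 1.08%) and 1.09% in shLuc (1.08 to 1.09%). Most later-numbered names were rare or not seen, with 691 between 1 and 49 counts and 922 at 0 in both libraries. A name at 0 may still have stood at up to 3 counts, which is 0.435 CPM for the shELOVL5 library and 0.427 CPM for shLuc. Of the later-numbered names 4.78% reached 50 counts, against 35.4% of the 962 others. The median member had 180 counts over both libraries, against 844 for the 341 other microRNAs with at least 50 counts. Of the members, 12 had over 1000 counts and 29 had fewer than 100.

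Within the members, the counts were concentrated in a few names. hsa-miR-1307-3p had 28577 counts in shELOVL5 and 29559 in shLuc and ranked 35th among all names. hsa-miR-4521 had 16459 and 17041 and ranked 48th. These 2 held 61.8% of the members' counts in shELOVL5 and 60.4% in shLuc, and the 6 most abundant held 83.3% and 83.9%. The 6 are completed by hsa-miR-1260b with 4429 and 4678 counts, hsa-miR-1260a with 4418 and 4639, hsa-miR-1180-3p with 3598 and 4935, and hsa-miR-3615 with 3257 and 3922. If reads of the miR-1260 pair were counted for both names, the share is somewhat overstated.

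**Figure D1:**
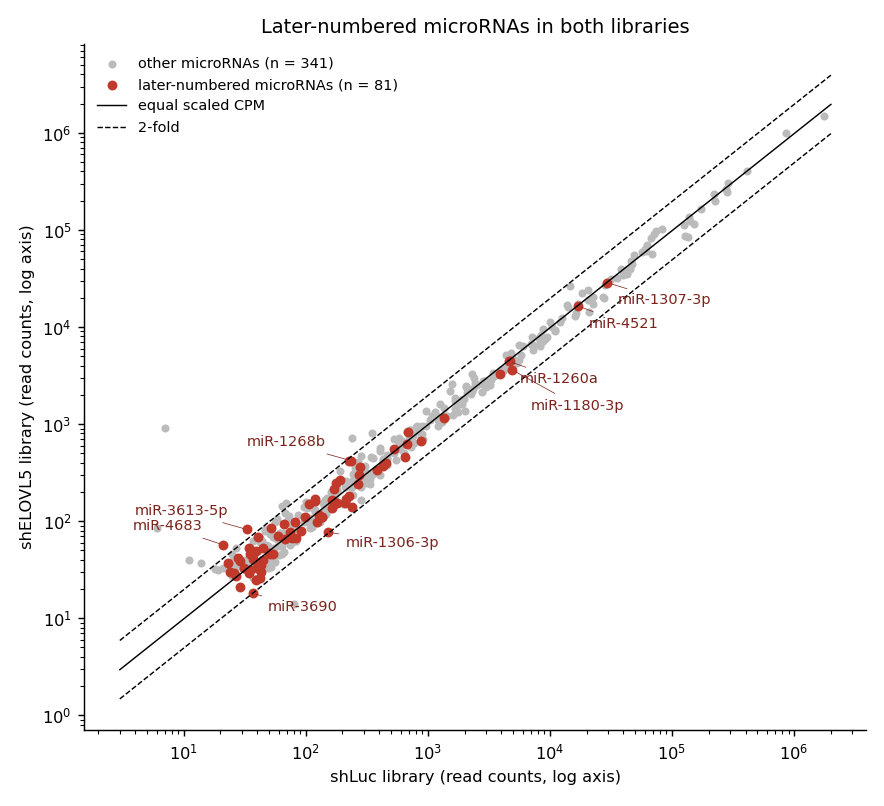
Read counts of each microRNA with at least 50 counts in the shLuc library (x axis) and the shELOVL5 library (y axis), on log axes. Red points are the 81 later-numbered members and grey points the 341 others, the solid line marks equal scaled CPM and the dashed lines a 2-fold difference. miR-4683 and miR-3613-5p lie above the upper dashed line, and miR-3690 lies at the lower one.

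Between the libraries, most members were near level. Ratios are of scaled CPM, shELOVL5 over shLuc, and their 95% intervals were derived by the exact Clopper-Pearson method from the part of a name's counts that fell in 1 library. Of the 81, 2 were at least 2-fold higher in shELOVL5 (2.47%, against 2.37% of all 422 microRNAs with at least 50 counts) and 1 was at least 2-fold lower (1.23%, against 0.474%). The first share is near the background, and the second rests on 1 name. For 16 members (19.8%, against 26.1% of all 422) the interval lay above 1, and for 10 (12.3%, against 22.3%) it lay below 1. With DESeq2 size factors this split was 15 and 16 among the members. Among all 422 it was 107 and 111, where it had been 110 and 94. Those factors were 1 for both libraries, so that setting compares raw counts without correction for the library totals. For 55 members the interval held 1, which at these counts does not show that they were level.

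The median log2 ratio of the members was -0.064, and that of all 422 was -0.0055. The middle 50% of members lay between -0.24 and 0.35, and the extremes were -1.01 and 1.47. Within 1.25-fold were 59.3% of the members and 69.8% of the other microRNAs. At like abundance this gap was not the same throughout. From 100 to 499 counts, 59.4% of 32 members and 59.4% of 96 others lay within 1.25-fold, and at 50 to 99 counts the shares were 51.7% of 29 and 48.9% of 45. From 500 to 4999 counts they were 64.3% of 14 members and 74.3% of 105 others. Intervals clear of 1 were fewer among members than among all 422 (32.1% against 48.3%). Only from 100 to 499 counts were they more frequent among members, at 43.8% against 26% of the others. At 50 to 99 counts they were 10.3% of the members and 13.3% of the others, and from 500 to 4999 counts 50% and 61.9%. Above 4999 counts they were 33.3% of 6 members and 86.3% of 95 others. The direction also depended on counts. Among the others, 11.1% lay above 1 and 2.22% below at 50 to 99 counts, and 21.9% and 4.17% from 100 to 499. Above 4999 counts, 30.5% of the others lay above 1 and 55.8% below. Of members with 100 to 499 counts, 31.25% lay above and 12.5% below. The 22.3% below 1 over all 422 is thus not matched to sets of rare members. At 50 to 99 counts the median log2 ratio was -0.064 for members and 0.20 for the others.

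**Figure D2:**
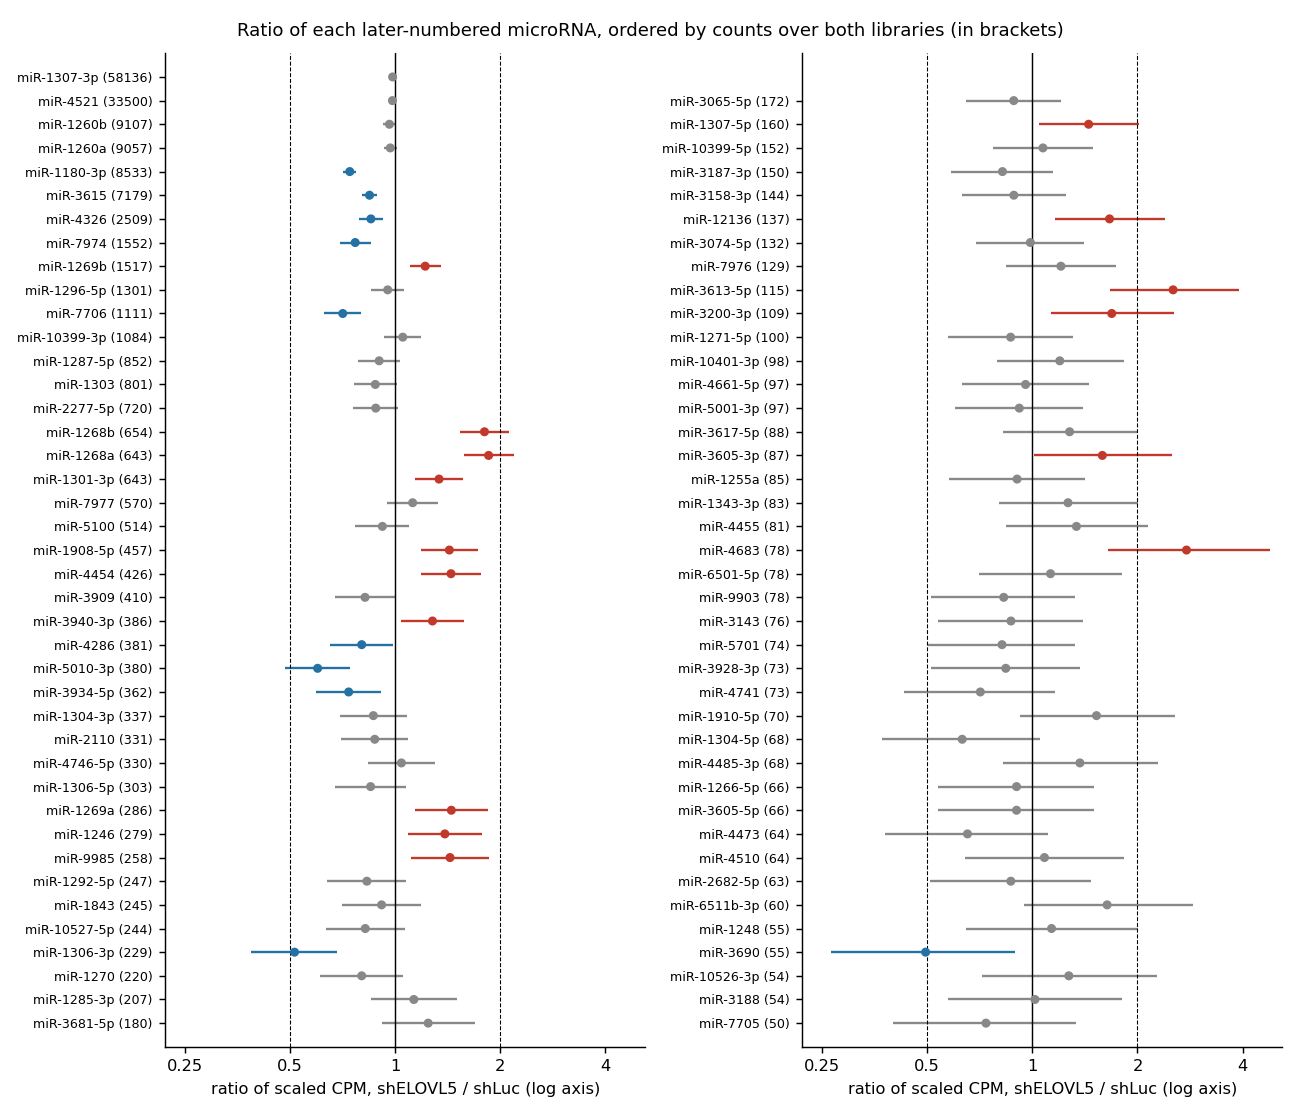
Ratio of scaled CPM, shELOVL5 over shLuc, for each of the 81 members on a log axis, ordered by the counts over both libraries given in brackets. Points are ratios and bars 95% counting intervals, red where the whole interval lies above 1 (16 members), blue where it lies below 1 (10) and grey where it holds 1 (55). Dashed lines mark 2-fold, and no member's whole interval lies beyond them.

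The most abundant members stood at or somewhat below level. hsa-miR-1307-3p had 4143 CPM in shELOVL5 and 4210 in shLuc, a ratio of 0.984 (0.968 to 1.00). hsa-miR-4521 had 2386 and 2427 CPM, a ratio of 0.983 (0.962 to 1.00). Scaling to the library total put both just above level, at log2 ratios of 0.013 and 0.012. hsa-miR-1180-3p, from an intron of B9D1, a gene of the ciliary transition zone, stood lower at 0.742 (0.711 to 0.775). hsa-miR-3615 stood at 0.845 (0.807 to 0.886), hsa-miR-4326 with 1144 and 1365 counts at 0.853 (0.788 to 0.924), and hsa-miR-7974 with 668 and 884 counts at 0.769 (0.695 to 0.852). hsa-miR-7706 was the lowest of the 15 most abundant, with 456 and 655 counts and a ratio of 0.709 (0.627 to 0.800). hsa-miR-1269b was the only one of these 15 whose interval lay above 1. The intervals of hsa-miR-1296-5p (629 and 672 counts), hsa-miR-10399-3p (551 and 533), hsa-miR-1287-5p (400 and 452), hsa-miR-1303 (371 and 430) and hsa-miR-2277-5p (334 and 386) held 1, with ratios from 0.878 to 1.05.

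The largest differences were in members with few counts. hsa-miR-4683 had 57 counts in shELOVL5 and 21 in shLuc, a ratio of 2.76 (1.65 to 4.80). It lies at chr10:35641181-35641203 in the coding exon of FZD8, a Wnt receptor gene. hsa-miR-3613-5p had 82 and 33 counts, with a ratio of 2.53 (1.67 to 3.91). It lies at chr13:49996465-49996486 in an intron of DLEU2, a noncoding gene known as host of miR-15a and miR-16. hsa-miR-15a-5p, with 325 and 293 counts, stood at 1.13 (0.961 to 1.33), and hsa-miR-16-5p, which also has a second locus, at 1.16 (1.13 to 1.20). Both were picked as partners with their values in view. The interval of hsa-miR-3613-5p lies above both of theirs. Its other arm, hsa-miR-3613-3p, had 5 and 6 counts.

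hsa-miR-3690 was the member at least 2-fold lower, with 18 counts in shELOVL5 and 37 in shLuc, 2.02-fold lower (1.12 to 3.77). With scaling to the library total its ratio was 0.508, within 2-fold. It lies in an intron of CSF2RA, a cytokine receptor gene, at chrX:1293927-1293949, and at the same coordinates on the Y chromosome. hsa-miR-1306-3p came next, with 77 and 152 counts, 1.94-fold lower (1.46 to 2.59). hsa-miR-5010-3p, counted 141 and 239 times, was 1.67-fold lower (1.35 to 2.07), and hsa-miR-3934-5p had 152 and 210 and was 1.36-fold lower (1.1 to 1.68). Of these 4, hsa-miR-3690 has the fewest counts and the widest interval. The last 2 names fall outside the naming rule and were picked with their values in view.

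Members of a near-identical pair gave nearly the same values. hsa-miR-1268a had 415 counts in shELOVL5 and 228 in shLuc, a ratio of 1.85 (1.57 to 2.19). hsa-miR-1268b had 418 and 236, a ratio of 1.80 (1.53 to 2.12). Since the shorter sequence is contained in the longer, these can be largely the same reads, and the difference counts as 1 observation. The miR-1260 pair likewise had counts within 1% of each other in each library, with ratios of 0.970 (0.93 to 1.01) for miR-1260a and 0.964 (0.925 to 1.00) for miR-1260b. In the miR-1269 pair the counts differed, with 168 and 118 for hsa-miR-1269a and 827 and 690 for hsa-miR-1269b. Their ratios were 1.45 (1.14 to 1.85) and 1.22 (1.1 to 1.35), which overlap. No source used here says how the authors treated reads that fit more than 1 microRNA.

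The members that resemble an older microRNA, which are outside the naming rule and were picked with their values in view, were rarer than it. hsa-miR-9985 had 151 counts in shELOVL5 and 107 in shLuc, a ratio of 1.44 (1.11 to 1.86). This is 0.183% of the 82439 counts of hsa-miR-27a-3p in shELOVL5 and 0.158% of its 67781 in shLuc. Against hsa-miR-27b-3p, with 115429 and 152205 counts, it is 0.131% and 0.0703%. hsa-miR-27a-3p stood at 1.24 (1.23 to 1.25) and hsa-miR-27b-3p at 0.772 (0.766 to 0.778), so the interval of hsa-miR-9985 overlaps the first and not the second. hsa-miR-4510 had 33 and 31 counts, 0.266% and 0.245% of those of hsa-let-7c-5p, and its ratio of 1.08 (0.643 to 1.83) overlaps that of hsa-let-7c-5p, 0.997 (0.973 to 1.02). hsa-miR-1271-5p had 46 and 54 counts, with a ratio of 0.867 (0.572 to 1.31), and hsa-miR-96-5p 1591 and 1759, a ratio of 0.921 (0.860 to 0.986). hsa-miR-2682-5p, with 29 and 34 counts, stood at 0.868 (0.510 to 1.47), and hsa-miR-449c-5p, with 83 and 46, at 1.84 (1.27 to 2.69). The only locus matched to hsa-miR-9985 is on the Y chromosome, at chrY:4606140-4606158, and whether these cells carry that chromosome was not tested. Whether reads of the abundant microRNA enter the rare count was not tested either.

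A list of microRNAs known to overlap another class of RNA had 7 members with at least 50 counts among 13 names. Its median log2 ratio was 0.45, against -0.0055 over all 422. Of the 7, 3 had intervals above 1 (42.9%, against 26.1% of all 422), 0 below (against 22.3%) and 4 holding 1. Those 3 had between 100 and 499 counts, where 21.9% of the other microRNAs lay above 1 and only 4.17% below. hsa-miR-4454, which ends in CACCA, had 250 counts in shELOVL5 and 176 in shLuc, a ratio of 1.45 (1.19 to 1.76). hsa-miR-1246, a fragment of U2 snRNA in many cells, had 161 and 118, a ratio of 1.39 (1.09 to 1.78). hsa-miR-12136, which resembles mitochondrial RNA, had 85 and 52, a ratio of 1.66 (1.16 to 2.40). In all 3 the shELOVL5 library was the higher one, by less than 2-fold. The other 4 are the miR-1260 pair near level, hsa-miR-4485-3p with 39 and 29 counts and hsa-miR-1248 with 29 and 26. hsa-miR-1248 lies within the annotated snoRNA SNORA81. hsa-miR-1843 lies likewise within the scaRNA SCARNA3 but is not on the list. It had 116 and 129 counts and a ratio of 0.915 (0.706 to 1.19), and adding it, with values known, gave a median of 0.32. Without the 7, the median of the remaining 74 members was -0.13. The 4 members ending in CACCA or CACCAU did not move together, since only hsa-miR-4454 had an interval clear of 1 and hsa-miR-7977, with 299 and 271 counts, stood at 1.12 (0.95 to 1.33).

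The members were shorter and richer in G and C than the other microRNAs. Of the 71 with a sequence, 17 (23.9%) had 20 bases or fewer, against 9 of 307 others (2.93%), while the median was 22 in both. The median GC content was 59.1% against 47.8%, and 29 members (40.8%) were above 60%, against 41 others (13.4%). hsa-miR-1268a had the highest GC content of the members at 83.3% and hsa-miR-3613-5p, which holds a long run of U, the lowest at 22.7%. Over all 1516 later-numbered names with a sequence, 19.9% had 20 bases or fewer and 36.8% were above 60% GC.

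The ratio was also set beside length and base composition, as a description with no test. The median log2 ratio was 0.35 over the 17 short members and -0.13 over the 54 longer ones. Of the 17, 6 had intervals above 1 (35.3%, against 26.1% of all 422), 2 of them the near-identical miR-1268 pair, and 1, hsa-miR-1306-3p, below (5.88%, against 22.3%). Among the other microRNAs, the median was -0.047 over the 9 short ones and 0.021 over the 298 longer ones. The 17 include the miR-1268 pair and 6 of the 7 names on the list of overlaps with other RNAs, among them the miR-1260 pair, so this split and that list share members. Above 60% GC the members' median was -0.023 and at or below it -0.021. For the other microRNAs these medians were -0.11, with 5 intervals above 1 and 15 below among 41, and 0.026, with 80 above and 60 below among 266.

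**Figure D3:**
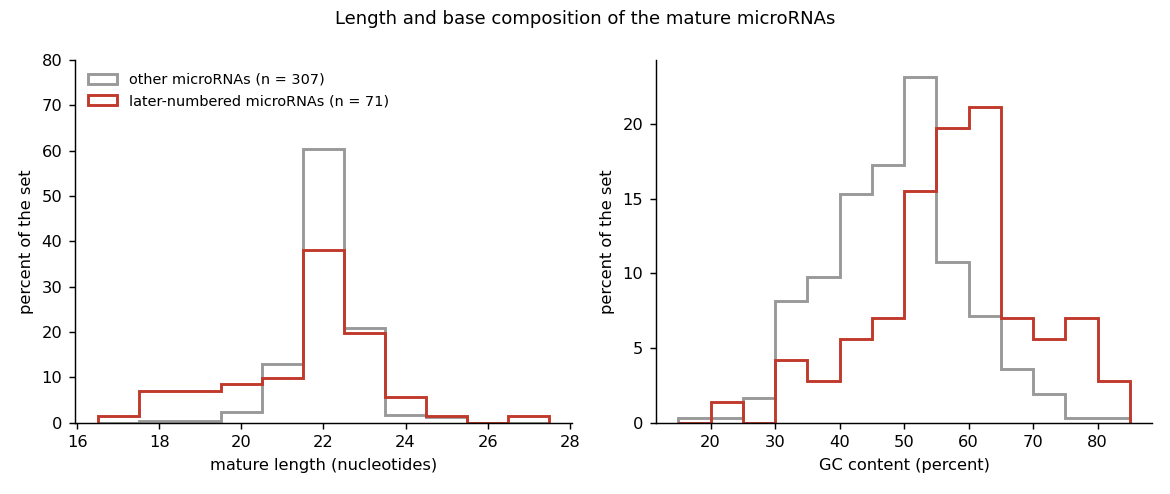
Length in nucleotides (left) and GC content in percent (right) of the mature sequences of 71 later-numbered members (red) and 307 other microRNAs with at least 50 counts (grey), as percent of each set per bin. The red outline reaches further to short lengths and to high GC content, with medians of 59.1% and 47.8% GC.

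By position on GRCh38 (GENCODE release 29), 66 of the 71 had a single locus, spread over 22 chromosomes. Of these, 23 lay in an intron of a gene on their own strand, 21 in an exon, 9 only opposite a gene and 13 in no annotated gene. The median log2 ratios of these 4 sets were 0.27, -0.18, -0.045 and 0.17. Intervals above and below 1 numbered 7 and 3 in introns, 3 and 3 in exons, 1 and 1 opposite a gene, and 5 and 0 outside genes, where all 422 microRNAs had 26.1% above and 22.3% below. The other microRNAs with 100 to 499 counts had 21.9% above and 4.17% below. The 5 outside genes are hsa-miR-1246, hsa-miR-1268a, hsa-miR-1269a, hsa-miR-4454 and hsa-miR-9985, all described above as resembling another microRNA or overlapping another RNA. A place counted as exonic where any transcript of the gene had an exon there, so some exonic members also lie in an intron of another transcript. Level of the host transcript was not measured.

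Among the exonic members, 8 lay in a 5′ UTR in at least some transcripts, and these did not share a direction. The hairpin of hsa-miR-1307-3p (chr10:103394301-103394322) lies in that of ATP5MD, a small subunit of mitochondrial ATP synthase. hsa-miR-3615 (chr17:74748663-74748683) lies in that of SLC9A3R1, a membrane scaffold gene, and hsa-miR-7706 (chr15:85380639-85380662) in that of AKAP13, an anchor of protein kinase A. Both of these had intervals below 1. hsa-miR-2110 (CCDC186), with 153 and 178 counts, and hsa-miR-4741 (RBBP8, a DNA repair gene), with 30 and 43, had intervals that held 1. hsa-miR-1908-5p, at chr11:61815209-61815229, is in the 5′ UTR or a noncoding exon of FADS1, depending on the transcript. In another transcript on the same strand it lies in an intron of 2217 bp. FADS1 encodes a desaturase that works beside ELOVL5 in the synthesis of polyunsaturated fatty acids. hsa-miR-1908-5p had 267 counts in shELOVL5 and 190 in shLuc, a ratio of 1.43 (1.18 to 1.73). Its other arm, hsa-miR-1908-3p, had 14 and 7 counts, with a ratio of 2.04 with a wide interval (0.769 to 5.96). Of the names in 5′ UTRs, those of FADS1, CCDC186 and RBBP8 were picked with their values in view. Like hsa-miR-1908-5p, hsa-miR-1307-3p and hsa-miR-4741 also lie in an intron of another transcript.

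In coding sequence, both arms of the hsa-mir-1306 hairpin lie in an exon of DGCR8, the partner of Drosha (chr22:20086072-20086093 and chr22:20086112-20086129). This mRNA hairpin is known to be cut by Drosha itself. hsa-miR-1306-5p had 138 and 165 counts, with a ratio of 0.851 (0.674 to 1.07), and hsa-miR-1306-3p the 77 and 152 given above. Both arms had fewer counts in shELOVL5, the 3p arm with an interval clear of 1. Among intronic members, hsa-miR-1301-3p (DNMT3A, a DNA methyltransferase) had 365 and 278 counts, with a ratio of 1.34 (1.14 to 1.57). hsa-miR-3200-3p (OSBP2, an oxysterol-binding protein), named after its values were seen, had 68 and 41, a ratio of 1.69 (1.13 to 2.55).

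The mirtron list, of microRNAs spliced out as short introns, had 1 member of 21 names above 50 counts. hsa-miR-3940-3p, from an intron of KHSRP, had 215 and 171 counts, with a ratio of 1.28 (1.04 to 1.57). Its mature strand ends 26 bases before the 3′ end of that intron, which is annotated at 82 bp. Outside that list, hsa-miR-5010-3p ends exactly at the 3′ end of an intron of ATP6V0A1 of 310 bp, and hsa-miR-3605-3p exactly at that of a PHC2 intron of 1685 bp. hsa-miR-6511b-3p ends 1 base before that of an intron of 127 bp in PKD1 and in its pseudogene PKD1P6, so its locus is uncertain. These 3 were described with their values in view. The shELOVL5 library was the lower one for hsa-miR-5010-3p and the higher one for hsa-miR-3605-3p (53 and 34 counts, ratio 1.59, 1.01 to 2.52) and hsa-miR-6511b-3p (37 and 23, ratio 1.64, 0.948 to 2.89).

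The list of hairpins opposite another hairpin had 2 members of 8 names. hsa-miR-3074-5p, opposite MIR24-1 on chromosome 9, had 65 and 67 counts, with a ratio of 0.988 (0.691 to 1.41). The abundant hsa-miR-24-3p, with 123792 and 139433 counts, stood at 0.904 (0.897 to 0.911). hsa-miR-3065-5p, opposite MIR338 on chromosome 17, had 80 and 92 counts, with a ratio of 0.885 (0.648 to 1.21). hsa-miR-338-3p had 0 counts in both libraries and hsa-miR-338-5p had 1 and 4, so here the later-numbered strand was the more abundant. The miR-338 arms were picked with their values in view. On the same strand, hsa-miR-10526-3p lies in an intron of MIR100HG, 153 bases from hsa-miR-100-5p. It had 30 and 24 counts, with a ratio of 1.27 (0.719 to 2.27), while hsa-miR-100-5p, with over 1000000 counts in each library, stood at 0.868 (0.866 to 0.870). Its nearest neighbour, hsa-miR-100-3p at 118 bases, had 74 and 51 counts and a ratio of 1.48 (1.02 to 2.15). hsa-let-7a-2-3p stood at 1.32 (1.16 to 1.5) and hsa-let-7a-5p, which other loci also encode, at 1.07 (1.07 to 1.08), so the neighbours lay on both sides of level.

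The list described in other mammals had 9 members of 27 names, with a median log2 ratio of -0.07. Its intervals lay above 1 for 2 members, hsa-miR-1301-3p and hsa-miR-1307-5p (22.2%, against 26.1% of all 422), below for 1, hsa-miR-1306-3p (11.1%, against 22.3%), and held 1 for 6. The list studied in breast cancer had 7 members of 13 names and a median of -0.023, with 3 intervals above 1 (42.9%, against 26.1% of all 422) and 0 below (against 22.3%). Those 3 were hsa-miR-1246, hsa-miR-1301-3p and hsa-miR-1307-5p. The share below 1 depended on abundance, as given above, so the 22.3% is not matched to the counts of either list. The lists overlap, since miR-1307, miR-1301, miR-1296 and miR-1271 are in both.

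The arm balance was measured in 40 later-numbered hairpins with both arms listed and at least 50 counts in all, with the 2 precursors of hsa-mir-3158, which list the same counts, taken once. The 5p arm was the more abundant in 20 and the 3p arm in 20, and the leading arm was the same in both libraries in 39. The rarer arm accounted, at the median, for 3.15% of counts in shELOVL5 and for 3.44% in shLuc, and it was at 0 in both libraries in 6 hairpins. Arm shares had overlapping exact intervals in all 40. Overlap of separate intervals is no test of their difference, so it does not show that the shares were equal. In 5 hairpins both arms were members. For hsa-mir-1306 the 5p arm took 64.2% in shELOVL5 (57.4 to 70.6%) and 52.1% in shLuc (46.4 to 57.7%). For hsa-mir-3605, whose 5p arm had 31 and 35 counts, it took 36.9% (26.6 to 48.1%) and 50.7% (38.4 to 63.0%), and this was the hairpin whose leading arm changed. These were the only hairpins near an even balance. For hsa-mir-10399, whose 5p arm had 78 and 74 counts, the share was 12.4% and 12.2%, and for hsa-mir-1304, with 26 and 42 counts of the 5p and 155 and 182 of the 3p arm, 14.4% and 18.8%. In hsa-mir-1307 the 5p arm, with 94 and 66 counts, took 0.328% (0.265 to 0.401%) and 0.223% (0.172 to 0.283%). hsa-miR-1307-5p thus had a ratio of 1.45 (1.05 to 2.02), while the 3p arm was near level.

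**Figure D4:**
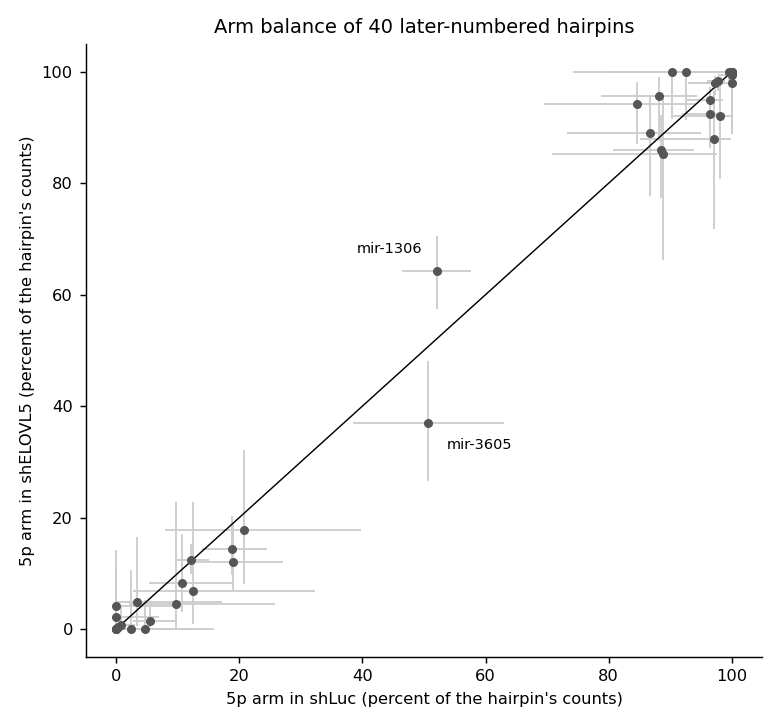
Share of the 5p arm in each of 40 later-numbered hairpins, in percent of the hairpin's counts, in shLuc (x axis) and shELOVL5 (y axis). Bars are exact 95% binomial intervals and the line marks equal shares. Most hairpins sit in the corners, and mir-1306 (52.1% and 64.2%) and mir-3605 (50.7% and 36.9%) lie near the middle.

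The limit of 50 counts cut through a continuous range. Just inside it were hsa-miR-7705 with 21 counts in shELOVL5 and 29 in shLuc, hsa-miR-3188 with 27 and 27 and hsa-miR-10526-3p with 30 and 24. Just outside were hsa-miR-12135 with 33 and 16, hsa-miR-3177-3p with 21 and 28, and hsa-miR-4448 and hsa-miR-4677-3p with 24 and 24 and with 27 and 21. hsa-miR-12135, just outside, had a ratio of 2.1 (1.12 to 4.09).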

How the data were processed

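Per the labels' protocols, RNA came from a miRNeasy kit and entered a NEBNext preparation for Illumina sequencing. Per the submitters' processing notes, the tools were cutadapt 2.10, Bowtie 1.1.1 and FastQC 0.11.9. No source used here gives the settings, counting program, genome build or annotation release. The values deposited by the authors are whole-number read counts, not normalized, with a line for each pairing of mature name and precursor. No molecular identifiers are described, so intervals cover counting error only.

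For each mature name the highest row per library was kept, and 5 members were listed under more than 1 precursor. CPM were scaled with TMM factors over all 2656 names (edgeR 4.0.16, R 4.3.3), 1.01 for shELOVL5 and 0.988 for shLuc. Intervals were exact Clopper-Pearson at 95% (scipy 1.17.1). The interval step was tested on simulated data. Counts past 2-fold are set beside the same over all 422 microRNAs with at least 50 counts. Sequences and positions of mature strands came from RefSeq, and genes around them from GENCODE release 29, both on GRCh38. The deposited table itself gives no positions.

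The members and lists were chosen with earlier results of these data known. Named members were the 15 most abundant, those past 2-fold, both arms of hairpins where both are members, the 4 most abundant of each list, those beside the limit of 50 counts, and those sharing a seed or nearly a sequence with another member. Others are marked. Alternatives were scaling to the library total, DESeq2 1.42.0 size factors, 5 CPM added, the sum over precursor rows, limits of 20 and 200 counts, a 1.5-fold rule, the whole interval beyond 2-fold, leaving out the list that overlaps other RNAs and, added after seeing the data, counting near-identical pairs once.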

Additional observations from a re-analysis of the deposited data

How the results depend on the processing

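No paired analysis was possible because shELOVL5 and shLuc have a single library each, so neither could be left out. The counts of members at least 2-fold higher and lower, 2 and 1, were 2 and 0 with scaling to the library total, 0 and 0 with 5 CPM added, 0 and 0 when the whole interval had to lie beyond 2-fold, and 9 and 5 with a 1.5-fold rule. With at least 20 counts they were 6 and 8 of 151 names, and with at least 200 counts 0 and 0 of 40. DESeq2 size factors, the sum over precursor rows, leaving out the list that overlaps other RNAs and counting near-identical pairs once (chosen after seeing the data) left them at 2 and 1. The median log2 ratio of -0.064 was -0.028 with total scaling, -0.089 with DESeq2, -0.036 with at least 20 counts, -0.12 with at least 200, -0.13 without the overlapping list and -0.095 with pairs counted once. The share of 1.07% in shELOVL5 and 1.09% in shLuc was 0.859% and 0.882% with summed rows, 1.09% and 1.1% with at least 20 counts, and 1.04% and 1.06% with at least 200. Of 324 log2 ratios under other settings, 3 left their counting interval, those of hsa-miR-1307-3p and hsa-miR-4521 with total scaling and of hsa-miR-1307-3p with DESeq2. Total scaling shifted every log2 ratio by 0.036 and DESeq2, whose factors were 1 for both libraries, by -0.026. With such small shifts only members with narrow intervals could leave them, so staying inside under these scalings says little about the others. Adding 5 CPM moved rare members more, with 0 leaving their interval. It took hsa-miR-4683 from a log2 ratio of 1.47 to 0.73 and hsa-miR-3613-5p from 1.34 to 0.80. The sign changed for 3 members, hsa-miR-1307-3p, hsa-miR-4521 and hsa-miR-3074-5p, whose intervals all hold 1. Few counts limit most members, and the lack of replicate cultures limits every comparison.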
